A study of Homo sapiens with 12 samples.

Results

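The inflammatory and interferon-induced chemokine ligands examined here are CCL3, CCL4, CCL5, CCL17, CCL22, CXCL9, CXCL10 and CXCL11. They were taken by gene symbol, and all 8 were found among the 19919 genes of the count table. The mRNA levels come from RNA sequencing of Raji and Daudi, established B cell lines derived from Burkitt lymphoma. In both lines wild-type cells were compared with cells in which FBXO11, an F-box protein that picks substrates for an SCF ubiquitin ligase, had been knocked out. Raji gave 4 wild-type and 4 knockout libraries, and Daudi gave 2 wild-type and 2 knockout libraries.

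All 12 libraries were of untreated cells grown in medium with serum. Raji wild type and Daudi wild type are labelled WT, with no mention of a vector or of drug selection. Raji FBXO11 knock-out and Daudi FBXO11 knock-out cells had received Cas9 and a guide against exon 4 of FBXO11 on the lentiviral vector LentiCRISPR v2. They were then selected with puromycin, grown from single cells by dilution, and screened by western blot and by sequencing of the target region. The titles give each knockout library a code of its own, RAJI14, RAJI41, RAJI12 and RAJI13 for Raji replicates 1 to 4 and DAUDI1015 and DAUDI104 for Daudi replicates 1 and 2. They do not say whether a code marks a clone, and the sources used here do not give the guide of each. The replicate numbers follow accession order and only name libraries. Vector, puromycin and cloning differ between the groups together with the genotype and cannot be told apart from it. Nothing in the labels says whether replicates came from separate cultures, so the library-to-library spread behind the p-values could be clonal or technical.

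Chemokines are small secreted proteins that attract leukocytes through receptors on the target cell. CCL3, CCL4 and CCL5 draw in T cells and monocytes, and CCL3 and CCL5 bind the receptor CCR1. CCL17 and CCL22 act on CCR4, and CXCL9, CXCL10 and CXCL11 on CXCR3, found on activated T cells. In B cells CCL3 and CCL4 are induced by antigen receptor and NF-kB signalling and the CXCR3 ligands by interferons. CCL3 and CXCL10 are also known targets of repression by BCL6, a substrate of FBXO11.

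Library totals were 11.2M to 23.6M counts. Levels are in CPM, counts per 1M after TMM scaling of the library sizes. The level of 3 counts, used as a floor, was 0.118 to 0.275 CPM, and like all counting intervals here it covers counting error only. FBXO11 mRNA averaged 89.5 CPM (SD 20.9) in wild-type and 56.2 CPM (SD 18.5) in knockout Raji libraries, and 66.8 CPM (SD 21.3) and 90.6 CPM (SD 3.14) in those of Daudi. Neither difference passed the edgeR test (adjusted p = 0.208 and 0.646), and gene-level counts cannot show an edit within exon 4. All 8 B cell markers were expressed, at a summed 2210 to 3590 CPM. Markers of myeloid and dendritic cells summed to 1.03 to 8 CPM in Raji and 14.4 to 60.2 CPM in Daudi, with S100A8 and CLEC9A at 0, and those of T and NK cells to 1.44 to 7.22 CPM, with CD2, CD5 and CD8A at 0. Raji wild-type replicates 3 and 4 resembled each other more (chi-square 2.18 per degree of freedom) than any other pair within a group (21.9 to 171). They still differed by more than counting noise and were kept as 2 libraries. The 2 Daudi wild-type libraries differed most (171), and Raji knockout replicate 4 stood apart from its group for several ligands, so values without these libraries stand beside the results they change.

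CXCL9, CXCL10 and CXCL11 lie side by side on the minus strand of chromosome 4 (GRCh38, GENCODE 29). CXCL9 (ENSG00000138755) spans chr4:76001275-76007488, CXCL10 (ENSG00000169245) chr4:76021117-76023497 and CXCL11 (ENSG00000169248) chr4:76033682-76041415. The 250 bases before each start (RefSeq, GRCh38.p14) are shown because the 3 neighbours differed in level and in change. Capitals mark matches to the core of the interferon-stimulated response element, GAAANNGAAA, or to the NF-kB consensus, searched on both strands.
CXCL10, chr4:76023498-76023747, minus strand: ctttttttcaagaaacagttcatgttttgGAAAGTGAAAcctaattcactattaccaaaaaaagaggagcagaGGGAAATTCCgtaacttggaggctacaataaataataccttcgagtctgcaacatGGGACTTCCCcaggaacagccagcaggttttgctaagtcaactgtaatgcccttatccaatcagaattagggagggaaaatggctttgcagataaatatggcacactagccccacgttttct
CXCL11, chr4:76036071-76036320, minus strand: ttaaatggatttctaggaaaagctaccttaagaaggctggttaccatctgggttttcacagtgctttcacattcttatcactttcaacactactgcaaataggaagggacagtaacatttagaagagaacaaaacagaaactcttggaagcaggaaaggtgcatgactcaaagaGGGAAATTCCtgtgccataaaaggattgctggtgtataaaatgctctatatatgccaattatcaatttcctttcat
CXCL9, chr4:76007510-76007759, minus strand: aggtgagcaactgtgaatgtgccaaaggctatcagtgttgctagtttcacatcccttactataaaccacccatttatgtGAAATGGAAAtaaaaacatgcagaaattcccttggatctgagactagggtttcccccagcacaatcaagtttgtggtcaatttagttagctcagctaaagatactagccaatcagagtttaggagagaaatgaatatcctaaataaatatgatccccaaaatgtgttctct

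The CXCL10 window held GAAAGTGAAA beginning 221 bases before the start and the NF-kB matches GGGAAATTCC and GGGACTTCCC 177 and 122 bases before it. The CXCL11 window held the same GGGAAATTCC 76 bases before the start and no match to the interferon core. CXCL9 held GAAATGGAAA 171 bases before the start and no NF-kB match. Of 35116 human windows of the same length, 3.02% held the interferon core and 9.96% the NF-kB consensus. The CXCL11 window also held TTCTAGGAA, 240 bases before the start. It matches the gamma-activated site TTCNNNGAA (in 6.57% of windows), a pattern that reads the same on both strands. On the opposite strand its letters are those of the BCL6 core TTCCTAGAA (in 0.313%), which always fits TTCNNNGAA as well. RefSeq windows were also found for CCL3, CCL22 and the copy CCL3L3, so 5 of the 8 ligands had one. CCL4, CCL5 and CCL17 had no entry. CCL22 held 2 overlapping NF-kB matches 186 and 185 bases before the start, and the CCL3 window held neither of those motifs. These matches describe letters and show no binding.

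CCL3 and CCL4 each have a near-identical copy nearby, which makes the division of their counts uncertain. CCL3 (ENSG00000277632, chr17:36088256-36090169, minus strand) and CCL4 (ENSG00000275302, chr17:36103590-36105621, plus strand) are followed by CCL3L3 (chr17:36194869-36196758, minus strand) and CCL4L2 (chr17:36210924-36212878, plus strand). The row named CCL3L3 carries ENSG00000276085, which GENCODE 29 calls CCL3L1. The coding sequences of CCL3 and CCL3L3 are shown without the stop codon, with differing bases in capitals, to show what parts the reads of these 2 genes.
CCL3: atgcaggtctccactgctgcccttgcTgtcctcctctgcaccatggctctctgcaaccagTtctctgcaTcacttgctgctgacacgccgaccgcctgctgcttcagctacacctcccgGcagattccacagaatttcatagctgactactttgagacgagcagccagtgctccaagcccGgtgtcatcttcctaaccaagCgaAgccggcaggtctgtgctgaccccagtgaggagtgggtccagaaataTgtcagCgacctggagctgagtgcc
CCL3L3: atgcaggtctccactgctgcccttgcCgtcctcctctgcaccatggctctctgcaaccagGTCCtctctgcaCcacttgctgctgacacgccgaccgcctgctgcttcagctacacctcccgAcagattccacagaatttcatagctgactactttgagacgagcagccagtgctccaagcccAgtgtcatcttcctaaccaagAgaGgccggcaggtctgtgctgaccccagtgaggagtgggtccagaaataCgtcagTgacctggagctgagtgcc

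The 2 coding sequences differed at 9 bases and by 3 inserted bases (95.7% identity over the alignment), and those of CCL4 and CCL4L2 at 7 bases (97.5%). Over the transcript, 9.88% of 50-base windows of CCL3 and 21.3% of those of CCL4 were also found in the copy. With 100 bases these shares were 0% and 5.59%. The 250 bases before the starts of CCL3 and CCL3L3 were 91% identical. In addition, 74.6% of the exonic bases of CCL3 and 23.3% of those of CCL3L3 overlap antisense genes, AC243829.4 and AC243829.1, and the library kit does not keep the strand. Reads from those genes cannot be told apart from reads of the chemokines. The sources used here do not give how reads matching several copies were counted.

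By edgeR, CCL3 and CCL5 were called lower in Raji knockout cells, and CCL3, CCL4 and CXCL10 in Daudi knockout cells. Several of these calls were fragile. CCL5 in Raji (adjusted p = 0.0479) and CCL4 in Daudi (adjusted p = 0.0485) lay close to the threshold. The Raji CCL3 call was lost when CCL3 was summed with its copy (-0.47, adjusted p = 0.853). With Daudi libraries alone, CXCL10 was the only ligand called (adjusted p = 0.0276). CCL3 was the ligand called in both lines, with group means of 3.81 ± 2.06 and 0.0986 ± 0.0589 CPM in Raji (SD, n = 4 each) and 5.60 ± 3.52 and 0.197 ± 0.0562 CPM in Daudi (n = 2 each). None of the 7 tested ligands was called higher in either line. Calls are edgeR adjusted p-values under 0.05 over all 12027 genes that passed the low-count filter. In Raji limma-voom, given below as an alternative, called 29.3% of all tested genes, against 2.6% with edgeR.

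In Raji, 2 of the 7 tested ligands were called, both lower, where 2.6% of all tested genes were called and 1.68% were called lower. In Daudi, 3 of 7 were called, all lower, where 2.62% of all tested genes were called and 1.82% were called lower. CCL17 did not pass the filter. The filter reads the same counts as the test, so the counts over the other 7 are descriptions. The median log2 change of the 7 was -1.62 in Raji and -3.41 in Daudi, beside 0.01 and 0.00 over all tested genes. In these bulk samples, fewer cells making a ligand and less of its mRNA per cell cannot be told apart.

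Every knockout library lay below every wild-type library for CCL3 and CXCL10 in Raji, an order that 5.99% of all tested genes showed. In Daudi it held for CCL3, CCL4, CCL5, CCL22, CXCL10 and CXCL11, and for 19.6% of all tested genes. With 2 libraries against 2 such an order is common in this line.

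**Figure D1:**
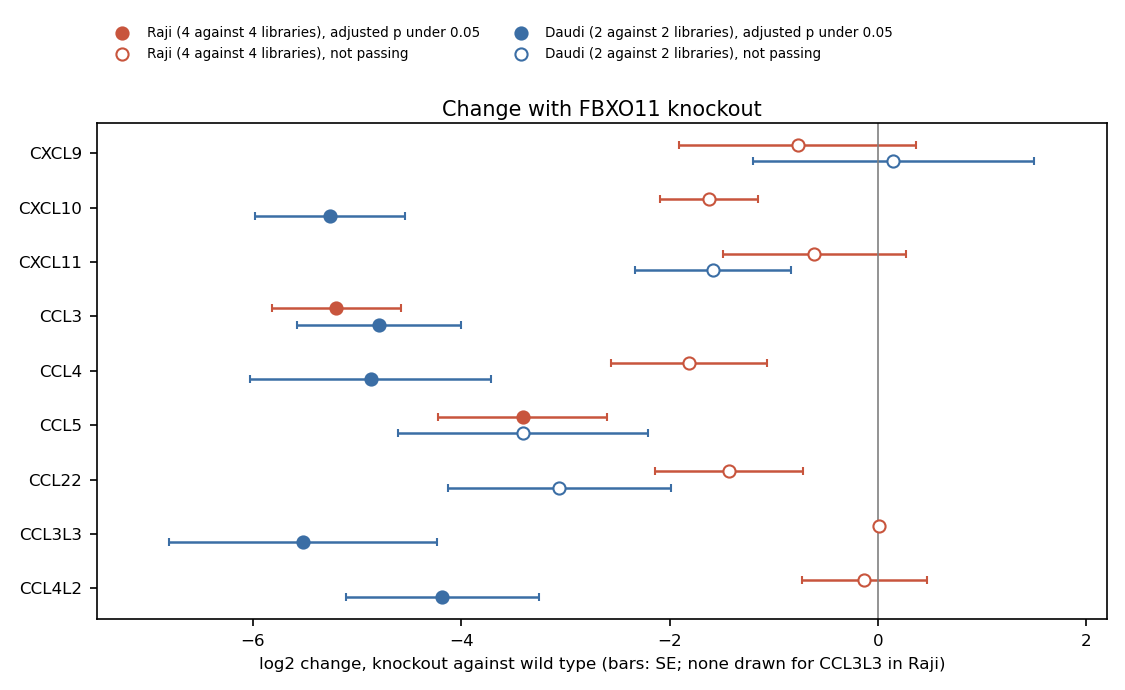
Log2 change with FBXO11 knockout (horizontal axis; bars, SE) of 7 ligands and 2 copies in Raji (red, 4 against 4 libraries) and Daudi (blue, 2 against 2). Filled points passed an edgeR adjusted p under 0.05. CCL3 lies near -5 in both lines, while CXCL10, CCL4 and both copies lie lower in Daudi than in Raji.

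CXCL10 is a ligand of CXCR3 first known as an interferon-gamma-induced protein. Its mean per kilobase of gene model was the highest of the 8 in both wild-type lines. In Raji its range (2.65 to 3.54 CPM per kb) overlapped that of CCL3 (1.16 to 3.94 CPM per kb). CXCL10 levels were 3.70, 3.12, 3.71 and 4.16 CPM in Raji wild-type replicates 1 to 4 and 1.2, 0.203, 2.33 and 1.01 CPM in Raji knockout. In Daudi they were 49.3 and 22.3 CPM in wild type and 0.946 and 0.904 CPM in knockout. The Daudi wild-type libraries stood far above the other 10, and their knockout libraries lay within the Raji knockout range.

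In Daudi the log2 change of CXCL10 was -5.26 (SE 0.72, adjusted p = 0.00393), and summed counts were 40.0 times higher in wild type than in knockout (counting interval 29.9 to 54.6). Without Daudi knockout replicate 2 the change was as large (-5.23) but the call was lost (adjusted p = 0.072), and without wild-type replicate 1, the higher library, the change was -4.58 (adjusted p = 0.0321). In Raji the change was -1.62 (SE 0.47) and missed the threshold (adjusted p = 0.101), although the groups did not overlap. DESeq2 (adjusted p = 0.0112) and limma-voom (adjusted p = 0.0053) passed it there, as did edgeR without Raji knockout replicate 3 (adjusted p = 0.049). Of all tested genes, limma-voom called 29.3% in Raji. The knockout changes of the lines differed by 3.65 on the log2 scale (95% interval 1.88 to 5.41, adjusted p = 0.0687), which DESeq2 called (adjusted p = 0.000473).

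CXCL11, the CXCR3 ligand of highest affinity, exceeded the floor in Daudi and not in Raji. Its counts were 93 and 79 in Daudi wild type (3.86 and 3.90 CPM), 16 and 50 in Daudi knockout (0.631 and 1.96 CPM), and between 0 and 3 in all 8 Raji libraries. No knockout change can be read there. Both Daudi knockout libraries lay under both wild-type libraries, but the change of -1.58 (SE 0.75) did not pass (adjusted p = 0.374).

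The 2 Daudi wild-type libraries held unequal levels of some ligands. CXCL10 was 2.21 times higher in replicate 1 than in replicate 2 (counting interval 1.98 to 2.47), whereas for CXCL11 the ratio was 0.988 (0.724 to 1.35). The ratio was 2.60 (1.95 to 3.51) for CCL3 and 3.02 (1.92 to 4.91) for CCL4, but 1.08 (0.742 to 1.58) for CCL22 and 1.14 (0.581 to 2.26) for CCL5. IRF9, the DNA-binding subunit of the interferon-activated factor ISGF3, had a ratio of 4.30 (4.06 to 4.57). For CXCL9, with 6 and 13 counts, it was 0.387 (0.121 to 1.09). The intervals cover counting error only and are wide for the ligands of few counts, so they describe 2 libraries and do not order the ligands.

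CXCL9, the third CXCR3 ligand, was near the floor. It had 1, 6, 7 and 4 counts in Raji wild type and 0, 0, 5 and 7 in Raji knockout. In Daudi it had 6 and 13 counts in wild type and 1 and 24 in knockout. The 2 Daudi knockout libraries thus held the highest count of the 12 and, with Raji wild-type replicate 1, the lowest above 0, and the groups overlapped in both lines. The log2 changes were -0.77 (SE 1.14) and 0.15 (SE 1.35), with adjusted p = 0.835 and 0.987.

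CCL3 (MIP-1 alpha) attracts monocytes and T cells. Its counts in Raji wild type were 29, 26, 96 and 106 (1.73, 2.38, 5.24 and 5.88 CPM). In Raji knockout they were 2, 1, 3 and 1 (0.0892, 0.0677, 0.184 and 0.0534 CPM). Wild-type replicates 3 and 4, the close pair, were the highest, and 3 of the 4 knockout libraries were under the floor.

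The Raji change of CCL3 was -5.20 (SE 0.62, adjusted p = 0.00149), and its summed counts were 41.4 times higher in wild type (counting interval 19.8 to 104). It passed in all 12 fits that left out 1 library (adjusted p = 0.00163 to 0.00801) and with the close pair summed (-4.99, adjusted p = 0.00689). In Daudi, CCL3 had 195 and 63 counts in wild type (8.09 and 3.11 CPM) and 6 and 4 in knockout (0.237 and 0.157 CPM). The change was -4.79 (SE 0.79, adjusted p = 0.00911). It did not pass with Daudi libraries alone (-4.76, adjusted p = 0.0728), where no spread is borrowed from Raji. Nor did it pass without Daudi wild-type replicate 1 (-3.94, adjusted p = 0.0647), knockout replicate 1 (-5.10, adjusted p = 0.0728) or knockout replicate 2 (-4.52, adjusted p = 0.151). The difference between the lines was -0.42 (95% interval -2.43 to 1.59).

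CCL3L3, the copy, encodes a near-identical ligand of the same receptors and carried most counts of the pair. Its 4 Raji wild-type libraries held 8.12, 7.98, 10.0 and 11.1 CPM, and the 4 knockout libraries 2.68, 1.01, 5.34 and 28.4 CPM. Raji knockout replicates 1 to 3 lay under all wild-type libraries, and knockout replicate 4 lay above them all. The Raji change was 0.01 (adjusted p = 1). It was -1.63 without knockout replicate 4 (adjusted p = 0.142) and -1.94 in limma-voom with quality weights. That tool gives a deviating library less weight and called CCL3L3 (adjusted p = 0.0194), with 29.3% of all tested genes called. In Daudi, CCL3L3 fell from 143 and 36.5 CPM to 2.48 and 1.41 CPM, a change of -5.52 (SE 1.29, adjusted p = 0.0458) that passed in 4 of 12 fits without 1 library.

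The share of the pair's counts assigned to CCL3 was lower in every Raji knockout library than in any Raji wild-type library. In Raji wild type it was 17.6%, 23.0%, 34.3% and 34.5%, with Wilson 95% intervals from 12.5% to 40.0% in all. In Raji knockout it was 3.23%, 6.25%, 3.33% and 0.188%. In Daudi it was 5.36% and 7.87% in wild type and 8.70% and 10.0% in knockout. Both Daudi knockout libraries lay above the wild-type ones, and whether the lines differed in this was not tested.

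The mean CCL3 share was 27.3 ± 8.45% in wild-type and 3.25 ± 2.48% in knockout Raji libraries (SD, n = 4 per group). The exact two-sided permutation p was 0.0286, the smallest this design allows. Adjusted over the 4 share tests made, this was 0.114. In Daudi the means were 6.61 ± 1.77% and 9.35 ± 0.922% (n = 2 each), a design too small for an exact permutation test to pass 0.05. With CCL3 and CCL3L3 summed into 1 gene, an alternative added after seeing the data, the Raji call was lost (-0.47, SE 0.76, adjusted p = 0.853). The summed pair fell in Daudi (-5.47, SE 1.28, adjusted p = 0.0462). The Raji call thus holds for the CCL3 row and not for the pair.

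**Figure D2:**
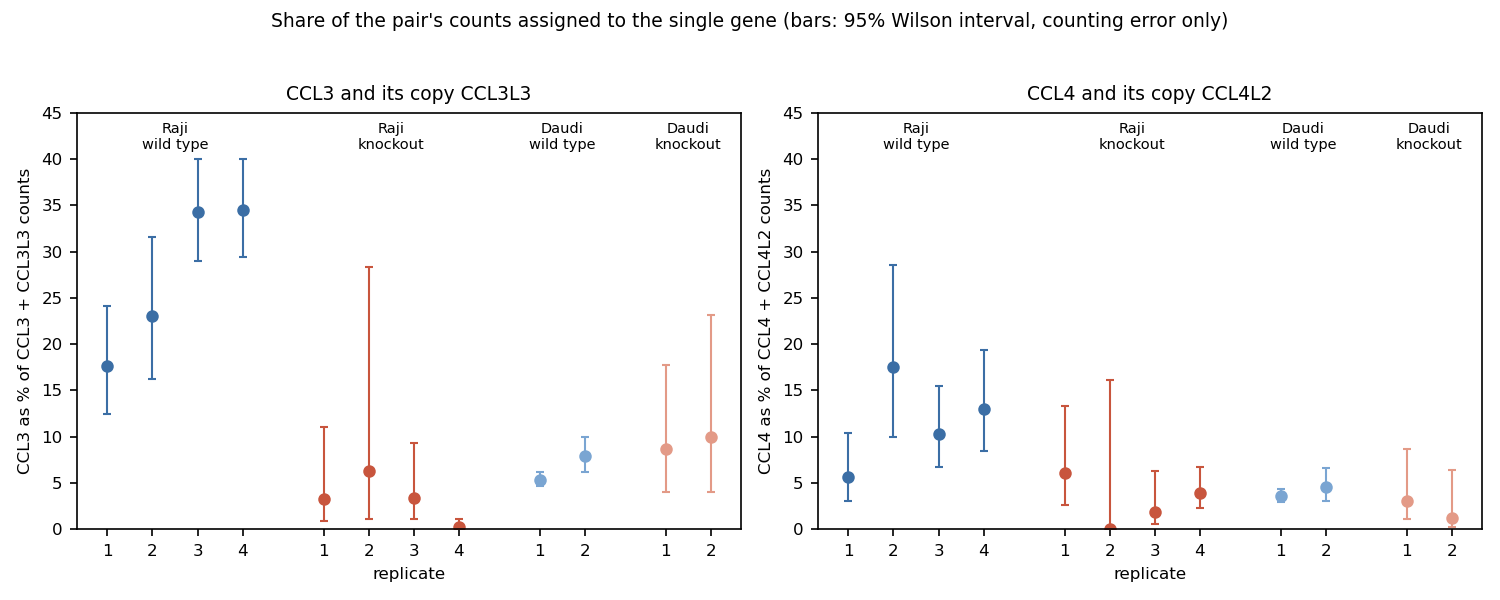
Percentage of a pair's counts assigned to CCL3 (left, of CCL3 and CCL3L3) and to CCL4 (right, of CCL4 and CCL4L2) in each library, with 95% Wilson intervals that cover counting error only. The CCL3 share is 17.6% to 34.5% in Raji wild type, 0.188% to 6.25% in Raji knockout, and 5.36% to 10.0% in Daudi.

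CCL4 (MIP-1 beta), the partner of CCL3 in drawing in T cells and monocytes, was weaker. It had 9, 11, 19 and 19 counts in Raji wild type and 5, 0, 2 and 12 in Raji knockout. The 12 counts of knockout replicate 4 overlapped the wild-type range, and the change of -1.81 (SE 0.75) did not pass (adjusted p = 0.258). It was -2.80 without that library (adjusted p = 0.0789) and was called by limma-voom (-3.13, adjusted p = 0.00357), with 29.3% of all tested genes. In Daudi the counts were 90 and 25 in wild type and 3 and 1 in knockout, a change of -4.87 (SE 1.16, adjusted p = 0.0485). This call was close to the threshold and passed in 3 of 12 fits without 1 library (adjusted p = 0.0232 to 0.397). It was lost without wild-type replicate 1 (-3.86), knockout replicate 1 (-5.76) or knockout replicate 2 (-4.32), and without each Raji wild-type library and Raji knockout replicates 1 and 3. With Daudi libraries alone it was -4.85 (adjusted p = 0.119).

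CCL4L2, its copy, had 8.95, 4.77, 9.07 and 7.04 CPM in Raji wild type and 3.48, 1.35, 6.69 and 15.8 CPM in Raji knockout. As with CCL3L3, knockout replicate 4 was the highest of the 8, and the change was -0.13 (SE 0.60, adjusted p = 0.97). In Daudi it fell from 101 and 26 CPM to 3.75 and 3.26 CPM, a change of -4.18 (SE 0.93, adjusted p = 0.0371) that passed in 5 of 12 fits without 1 library. CCL4 held 11.6 ± 4.95% of the counts of its pair in wild-type and 2.93 ± 2.61% in knockout Raji libraries (SD, n = 4 per group), with an exact two-sided permutation p of 0.0571 (adjusted 0.114). The summed pair changed by -0.24 in Raji (adjusted p = 0.916) and by -4.20 in Daudi (SE 0.93, adjusted p = 0.0359). In Raji knockout replicates 1 to 4 the pair stood at 3.7, 1.35, 6.81 and 16.4 CPM, beside 5.78 to 10.1 CPM in Raji wild type. It was not refitted without knockout replicate 4.

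CCL5 (RANTES; ENSG00000271503, chr17:35871491-35880793, minus strand) binds CCR1 and CCR3. Its counts were 11, 3, 61 and 65 in Raji wild type and 5, 5, 2 and 1 in Raji knockout. The close pair, wild-type replicates 3 and 4, had 3.33 and 3.60 CPM, while replicates 1 and 2 had 0.656 and 0.275 CPM. Replicate 2 lay within the knockout range of 0.0534 to 0.338 CPM, so the groups overlapped.

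The Raji change of CCL5 was -3.41 (SE 0.81, adjusted p = 0.0479). Leaving out 1 library kept the call in 2 of 12 fits (adjusted p = 0.0229 to 0.155): those without wild-type replicate 1 or 2. With wild-type replicates 3 and 4 summed the change was -3.04 (adjusted p = 0.14), and with the knockout libraries summed by pairs -3.44 (adjusted p = 0.253). With Raji libraries alone CCL5 did not pass the low-count filter and was not tested. In Daudi, CCL5 had 23 and 17 counts in wild type and 2 in each knockout library. The groups did not overlap, and summed counts were 11.5 times higher in wild type (counting interval 4.14 to 44.1). The change, also -3.41 (SE 1.2), did not pass (adjusted p = 0.189).

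CCL22 (MDC; ENSG00000102962, chr16:57358772-57366190, plus strand), which recruits CCR4-bearing regulatory and Th2 cells, had 22, 25, 57 and 52 counts in Raji wild type (1.31, 2.29, 3.11 and 2.88 CPM). Raji knockout had 7, 3, 8 and 47 counts (0.312, 0.203, 0.491 and 2.51 CPM). Knockout replicate 4 lay within the wild-type range and the other 3 below it. The change was -1.43 (SE 0.71, adjusted p = 0.361). Without knockout replicate 4 it was -2.81 and passed (adjusted p = 0.0235). It also passed in limma-voom (-2.94, adjusted p = 0.00124), with 29.3% of all tested genes called. Daudi had 67 and 52 counts in wild type and 13 and 3 in knockout, with no overlap, and a change of -3.06 (SE 1.07) that did not pass (adjusted p = 0.185). It passed without Raji knockout replicate 4 (adjusted p = 0.0416).

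CCL17 (TARC; ENSG00000102970, chr16:57404767-57416062, plus strand), the other CCR4 ligand and a neighbour of CCL22, was the weakest. It had 2, 6, 5 and 4 counts in Raji wild type and 0, 0, 0 and 9 in Raji knockout. All knockout counts came from replicate 4, whose 0.481 CPM lay within the wild-type range. A count of 0 allowed levels up to 0.134 to 0.203 CPM in the other 3 knockout libraries, which overlaps that range of 0.119 to 0.550 CPM. The total was 2.13 times higher in wild type, with a counting interval of 0.899 to 5.43. Daudi had 1 count in 1 wild-type library and 0 in the other 3, too few for any comparison. With no low-count filter the Raji change was -1.14 (adjusted p = 0.754).

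Raji knockout replicate 4 had the highest level within its group of CCL4, CCL17, CCL22, CXCL9, CCL3L3 and CCL4L2. In the same library CCL3 (1 count) and CCL5 (1 count) were at the group's lowest level, and CXCL10 (1.01 CPM) lay between the others. Its markers of myeloid and dendritic cells summed to 2.03 CPM, between those of knockout replicates 2 (1.15 CPM) and 3 (3.01 CPM).

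The direct test of the difference between the lines' knockout changes called 0 of the 7 ligands with edgeR, where 0.773% of all tested genes were called. At an unadjusted p under 0.05 it gave 2, CXCL10 and CCL4 (a difference of 3.06, SE 1.35, adjusted p = 0.36). DESeq2 called 1, CXCL10, and limma-voom 0. The calls made in 1 line and missed in the other are therefore no evidence that the lines differed.

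Between the wild-type lines, CXCL10 (-3.28, SE 0.51, adjusted p = 0.000285) and CXCL11 (-5.11, SE 0.74, adjusted p = 0.00018) were lower in Raji. They were the 2 of 7 called, where 45.1% of all tested genes were called and 24.8% were called lower in Raji. The copies CCL3L3 (-3.26, adjusted p = 0.0105) and CCL4L2 (-3.08, adjusted p = 0.00332) were lower in Raji too, while CCL3 (-0.55, 95% interval -1.74 to 0.64) and CCL4 (-1.45, -3.14 to 0.24) did not pass. Between the knockout lines CXCL11 alone of the 7 was called (-4.14, SE 0.78, adjusted p = 0.00116), with 42.2% of all tested genes called and 22.5% called lower in Raji. For CXCL10 the knockout lines differed by 0.37 (95% interval -0.94 to 1.68).

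Per kilobase of gene model, the order of levels in Raji wild type was CXCL10 at 3.12, CCL3 at 2.55, CCL5 at 1.3, CCL22 at 0.819, CCL17 at 0.469, CCL4 at 0.447, CXCL9 at 0.111 and CXCL11 at 0.0511 CPM per kb. Each overlapped its neighbour in range, except that CCL4 lay above CXCL9 in every library. In Daudi wild type the order was CXCL10 at 30.4, CCL3 at 3.75, CXCL11 at 2.03, CCL4 at 1.22, CCL22 at 0.913, CCL5 at 0.593, CXCL9 at 0.163 and CCL17 at 0.0335 CPM per kb. There CCL4 and CCL22 overlapped, and CCL3 and CXCL11 differed by less than the spread of CCL3 (SD 2.36). The copies were higher than CCL3 and CCL4 in both lines, CCL3L3 at 6.33 and 61.1 and CCL4L2 at 5.34 and 45.5 CPM per kb in Raji and Daudi wild type.

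The other chemokine ligands were mostly silent. Of 39 listed, 37 were in the table, 20 were at 0 in all libraries and 3 could be tested: the 2 copies and CCL25, a CCR9 ligand of thymus and gut. CCL25 had 73 and 65 counts in Daudi wild type and 0 and 3 in Daudi knockout, with at most 1 in any Raji library. It fell in Daudi (-5.58, SE 1.06, adjusted p = 0.0177), as did both copies. In Daudi 2.62% of all tested genes were called and 1.82% were called lower. CCL25 passed the low-count filter only through Daudi wild type, so its fall there is a description. The CCL25 call was lost with Daudi libraries alone (-5.58, adjusted p = 0.0986). It was also lost when Daudi wild-type replicate 1 was left out (-5.62, adjusted p = 0.0884), or knockout replicate 1 (-4.65, adjusted p = 0.14) or 2 (-8.87, adjusted p = 0.0778). In Raji 0 of these 3 were called by edgeR, 0 at an unadjusted p under 0.05, and limma-voom called CCL3L3.

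Receptors and proteins that handle the ligands gave 3 testable genes of 8. None was called by edgeR in either line, DESeq2 called 0 and limma-voom 1 in each line, and with edgeR 1 had an unadjusted p under 0.05. This was CCR1, the receptor of CCL3 and CCL5, in Daudi (-6.47, SE 1.19, adjusted p = 0.0579). It had 188 and 77 counts in Daudi wild type, 3 and 0 in Daudi knockout, and 0 in every Raji library. CCR1 too passed the low-count filter only through Daudi wild type. The 5 genes that could not be tested, CCR3, CCR4, CXCR3, ACKR1 and DPP4, had at most 7 counts in any library.

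Of 17 interferon signalling genes tested in Daudi, where CXCL10 fell, 3 fell, 0 rose and 14 did not pass. Of all tested genes 2.62% were called there and 1.82% were called lower. With edgeR 8 of the 17 had an unadjusted p under 0.05, while DESeq2 called 7 and limma-voom 2. Any link between these genes and the ligand changes was not tested. Those that fell by edgeR were STAT2 (-2.45), IRF1 (-2.11) and IRF9 (-3.23), which carry the interferon signal to DNA. The median log2 change of the 17 was -0.5, with 11 negative. The receptor chains IFNAR1 (0.51, adjusted p = 0.298) and IFNAR2 (1.12, adjusted p = 0.0515) lay on the other side of 0. In Raji edgeR called 0 of 17, with 6 at an unadjusted p under 0.05, while DESeq2 called 4 and limma-voom 10 (it called 29.3% of all its genes there). IRF9 was at 279 and 64.9 CPM in Daudi wild type, 22.9 and 13.9 CPM in Daudi knockout and 11 to 17.4 CPM in Raji. The knockout changes differed between the lines for IRF9 (3.27, SE 0.63, adjusted p = 0.0383). Without Daudi wild-type replicate 1, the library with the high values, IRF9 changed by -1.82 (adjusted p = 0.0406), but STAT2 (-0.82) and IRF1 (-1.15) did not pass. None of the 3 passed with Daudi libraries alone or without knockout replicate 1 or 2, where IRF9 was at -3.18 (adjusted p = 0.141), -3.63 (adjusted p = 0.054) and -2.90 (adjusted p = 0.157). Of the 12 fits without 1 library, the Daudi call held in 10 for IRF9, 8 for IRF1 and 2 for STAT2, and limma-voom called neither STAT2 nor IRF1. The difference between lines passed in 2 of these 12 fits for IRF9.

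Of 20 NF-kB subunits, kinases and inhibitors tested in Raji, where CCL3 and CCL5 were called lower, 2 rose and 0 fell by edgeR. These were REL (0.78, SE 0.13, adjusted p = 0.00758), a subunit prominent in B cells, and BCL3 (1.23, SE 0.25, adjusted p = 0.0278), a nuclear cofactor. Of all tested genes 2.6% were called in Raji. There 7 of the 20 had an unadjusted p under 0.05 with edgeR, DESeq2 called 6 and limma-voom 10. Any link between these genes and the ligand changes was not tested. REL passed in all 12 fits without 1 library and BCL3 in 5. TNFAIP3, the feedback inhibitor A20, was at -1.35 in Raji (adjusted p = 0.127) and -1.60 in Daudi (adjusted p = 0.241). In Daudi edgeR called 0 of 20, with 7 at an unadjusted p under 0.05, DESeq2 called 1 and limma-voom 0. There 16 of the 20 changes were negative (median -0.34), against 10 of 20 in Raji (median 0.00).

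The IL-4 and STAT6 axis, which induces CCL17 and CCL22, had 7 testable genes of 9. In Raji edgeR called 0, with 1 at an unadjusted p under 0.05, DESeq2 called 0 and limma-voom 3. In Daudi edgeR called 0, with 2 at an unadjusted p under 0.05, DESeq2 called 1 and limma-voom 0. STAT6 itself averaged 328 CPM (SD 49.2) in the 4 wild-type and 371 CPM (SD 69.9) in the 4 knockout libraries of Raji. In Daudi it averaged 418 CPM (SD 3.14) and 314 CPM (SD 61.8).

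BCL6, the repressor, fell in Raji (-0.75, SE 0.17, adjusted p = 0.0352). It was at 0.67 in Daudi (SE 0.24, adjusted p = 0.189). The difference of these changes was -1.42 (SE 0.29, adjusted p = 0.0483), and it passed in 3 of 12 fits without 1 library, the Raji fall in 4. Among the corepressors and the target PRDM1, 0 of 5 were called in either line by edgeR, and 0 had an unadjusted p under 0.05. Limma-voom called 1 of these 5 in Raji and 0 in Daudi. Any link between BCL6 and the ligand changes was not tested.

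**Figure D3:**
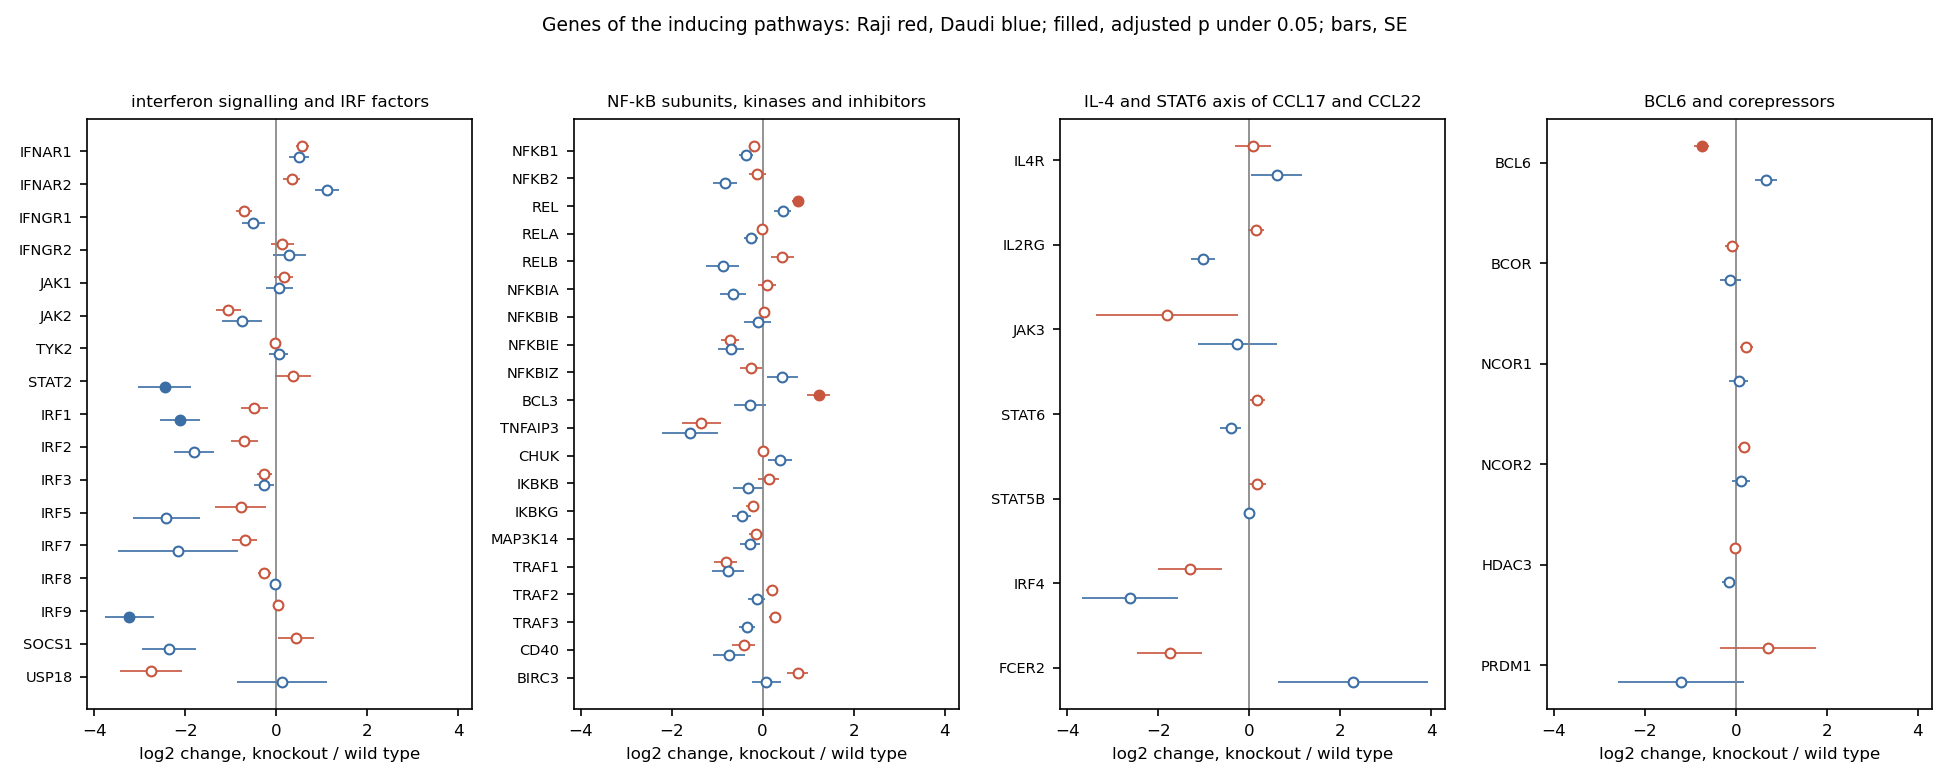
Log2 change with knockout (horizontal axes; bars, SE, none where the change is below 0.05 in size) of the tested genes of 4 pathway lists in Raji (red) and Daudi (blue). Filled points passed an edgeR adjusted p under 0.05: STAT2, IRF1 and IRF9 lie lower in Daudi, REL and BCL3 higher and BCL6 lower in Raji.

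Summed markers of myeloid and dendritic cells were lower in the knockout groups. The myeloid and dendritic list summed to 3.48 to 8 CPM in Raji wild type and 1.03 to 3.01 CPM in Raji knockout, and to 31.2 to 60.2 and 14.4 to 21.3 CPM in Daudi wild type and knockout. Of its 12 genes 4 could be tested, 2 of them with negative changes in each line. CSF1R, a macrophage growth factor receptor, fell in Raji (-3.11, SE 0.46, adjusted p = 0.00468) and did not pass in Daudi (-1.36, adjusted p = 0.143). CD68, a lysosomal protein of macrophages, was at -2.54 and -5.26 (adjusted p = 0.145 and 0.0515), LYZ at 1.47 and 0.35 and ITGAM at 0.36 and 0.26. CD14 had at most 7 counts in any library, and S100A8 and CLEC9A had 0. The T and NK list summed to 1.74 to 1.83 CPM in Daudi wild type and 4.22 to 6.84 CPM in Daudi knockout, the direction opposite to the ligands, and the groups overlapped in Raji (1.44 to 7.22 and 1.5 to 6.64 CPM). Of its 12 genes 4 could be tested, edgeR called 0, and 1 in each line had an unadjusted p under 0.05. DESeq2 called 0, limma-voom called 1 in Raji, and the median log2 changes were 1.70 and 1.94. B cell markers summed to 3160 to 3540 and 2520 to 3040 CPM in Raji wild type and knockout and to 2810 to 3590 and 2210 to 2460 CPM in Daudi, with MS4A1 (CD20) fallen in Daudi (-1.14, SE 0.25, adjusted p = 0.0357). The MS4A1 call was lost without Daudi wild-type replicate 1 (-0.67), knockout replicate 1 (-1.28) or knockout replicate 2 (-1.01). The part of these shifts in the ligand results was not tested.

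Across the 12 libraries, each ligand's log2 CPM was compared with that of all other tested genes. The libraries differ in line, genotype and depth, and the correlations include those differences. CCL3 was most like IDH2 (Pearson r = 0.933), DNAJC1 (0.908) and CAST (0.896). CXCL10 was most like COX5A (0.955), TDRD7 (0.947) and C2CD2 (0.943), and CXCL11 like TNFRSF21 (0.986), RMDN2 (0.982) and TRPC6 (0.970). For CCL4 the nearest were DNAH8 (0.938), IFI35 (0.937) and APOBEC3F (0.929). For CCL5 they were LACTB (0.884), DCPS (0.879) and NOB1 (0.876), and for CCL22 they were PSME1 (0.918), CCL4 (0.916) and GALK1 (0.907). CCL22 and CCL4 were the only pair of ligands in which one was among the 3 genes most like the other. CXCL9 and CCL17 stayed under 1 CPM on average in every group and were not compared.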

How the data were processed

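Libraries were made from DNase-treated TRIzol RNA with the unstranded, poly(A)-selecting TruSeq RNA v2 kit, per the labels' protocols. STAR 2.5.0, RSEM 1.3.0 and hg38 are named in the submitters' processing notes. The deposited table holds raw, unpooled counts per gene as whole numbers. The sources used here do not give whether these are rounded RSEM estimates. Groups follow cell line and genotype in the labels.

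The members and gene lists were chosen with earlier results of these data known. All members are named. Some genes of the lists are not reported here and are left out of their counts. Of other lists at most 4 genes are named that passed a knockout test or changed most, and for each ligand reaching 1 CPM the 3 genes most correlated in log2 CPM (prior count 2).

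edgeR 4.0.16 in R 4.3.3 filtered low counts over the 4 groups, scaled libraries by TMM and fitted a robust quasi-likelihood model to all 12 libraries (8 residual degrees of freedom, biological coefficient of variation 26.1%), so Daudi borrows its spread from Raji. Benjamini-Hochberg adjustment ran over 12027 genes, and the model was tested on simulated data. Alternatives were DESeq2 1.42.0, limma-voom (limma 3.58.1), RLE or no scaling, other filters, fits within a line, each library left out, and copies summed. Further fits summed the close Raji wild-type replicates 3 and 4, or Raji knockout replicates 1 with 2 and 3 with 4. Those knockout pairs were less alike (chi-square 21.9 and 49.1 per degree of freedom). Counting intervals are exact Poisson at 95%, share intervals Wilson. Motifs were searched in RefSeq windows of 250 bases, and gene models are from GENCODE 29.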

Additional observations from a re-analysis of the deposited data

Results flagged for a closer look

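Of 20 groups of 4 Raji libraries examined for a library far from the rest (Dixon's ratio, which chance exceeds in about 1 group in 20), 4 stood out. Raji knockout replicate 4 was high for CCL17 (0.481 CPM, with the other 3 at 0), CCL22 (2.51 CPM) and CCL3L3 (28.4 CPM). Raji wild-type replicate 1 was low for CCL4 (0.537 CPM).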

How the results depend on the processing

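Refits of single ligands numbered 741 over all comparisons, most of them of results that were not called and could not lose a call. Of the 741, 31 lost a call, 13 gained one and 14 changed sign. All 31 losses were of knockout calls, most often CCL5 in Raji and CCL4 in Daudi. The count of sign changes leaves out CCL5 in the difference between lines, which was 0.00 and lay between -0.46 and 0.48. Shares of all tested genes called stand in brackets. The Raji count of called ligands, 2 (2.6%), was 5 with limma-voom (29.3%), 1 with Raji libraries alone (3.15%; 4 ligands tested), 1 with wild-type replicates 3 and 4 summed (1.16%), 1 with the knockout libraries summed by pairs (0.671%), 1 with the copies summed (2.59%), and 1 to 2 without 1 library. The Daudi count, 3 (2.62%), was 1 with Daudi libraries alone (0.121%) and 0 to 4 without 1 library. It was 1 without wild-type replicate 1 (0.564%) or knockout replicate 1 (0.807%), and 0 without knockout replicate 2 (0.3%). The count for the difference between lines, 0 (0.773%), was 1 with DESeq2 (2.57%), 1 with the knockout pairs summed (0.356%) and 0 to 1 without 1 library. The count for the wild-type lines, 2 (45.1%), was 4 with the copies summed (45.1%). CCL3L3 in Raji (0.01) was -1.94 with limma-voom and -1.63 to 0.37 without 1 library, and CCL4L2 (-0.13) was -0.96 to 0.20. CXCL9 in Daudi was -0.79 with limma-voom and -3.28 to 1.08 without 1 library. For the difference between lines, CCL3 was 5 with the copies summed and -1.26 to 0.11 without 1 library, and CXCL9 was -1.85 to 2.51. Between the wild-type lines, CCL3 was -1.07 to 0.30, CXCL9 -1.12 to 0.24, and CCL22 0.12 with limma-voom and -0.32 to 0.03. Between the knockout lines, CCL3 was 2.14 with the copies summed, CXCL9 -2.43 to 1.93, and CXCL10 -0.33 with limma-voom and -0.13 to 0.70. The cause of these shifts was not tested. Scaling by library totals alone moved the median of all genes from -0.07 to -0.30 between the wild-type lines. Ligands near 3 counts (CCL17, CXCL9, and CXCL11 in Raji) are limited by depth. No paired analysis was possible because the labels give no replicate numbers.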
